A study of Mus musculus with 10 samples.

Results

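The step examined here is the change in gene expression that accompanied treatment with high-density lipoprotein (HDL) in primary mouse aortic smooth muscle cells already loaded with cholesterol. It was taken as HDL minus cholesterol on 4 arrays, 2 per group, chosen by their labels from the 10 value columns of the series, and it covered all 16860 measured genes. The cells came from thoracic aortas of C57BL/6 mice aged 8 weeks, at no more than 5 passages, in medium with 10% fetal bovine serum, and the labels list no transgene or deletion. The cholesterol group received cholesterol at 10 µg/mL for 72 h, complexed with methyl-β-cyclodextrin at 6 moles per mole of cholesterol. The HDL group received the same loading and then human HDL at 100 µg/mL for a further 72 h, which put its harvest at 144 h after loading began. No loaded culture harvested at that later time without HDL was analysed here. HDL, the end of the 72 h loading and the additional time in culture therefore cannot be told apart. A baseline group of 2 arrays, with no stimulus listed, supplied the reference for calling a change a return. No cyclodextrin is listed for it, so cholesterol and its carrier cannot be told apart in the loading step. No harvest time was recorded here for the baseline group. Time in culture therefore also cannot be told apart from loading, nor from treatment in the comparison of HDL with baseline. The arrays are numbered 1 and 2 in each group with no statement of whether they were separate cultures, isolates or mice, so p-values measure the spread between these samples only, which may be technical.

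Smooth muscle cells of the vessel wall take up cholesterol and store the surplus as esters in lipid droplets. Cellular sterol is sensed by the SREBP transcription factors, which switch on cholesterol synthesis and uptake when sterol is low, and by the liver X receptors, which switch on the exporters that hand cholesterol to acceptors outside the cell. HDL is such an acceptor, and it also carries lipids and proteins that signal through surface receptors. A loaded cell given HDL could therefore move back toward its unloaded state, could respond to HDL itself, or could continue in the direction that loading had begun.

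The deposited table names genes by Ensembl identifier, and none of the 16860 identifiers matched a gene symbol in the reference table used here. The changes are therefore described by their size, their direction and their relation to the loading response, and at most 2 identifiers that rose and 2 that fell are given. The gene groups chosen by symbol, among them sterol synthesis, efflux, interferon-induced, chemokine, lysosomal, contractile and macrophage genes, were not analysed here, and the smooth muscle identity of the cells was not checked against its markers. Only cell cycle genes, for which a list by Ensembl identifier was at hand, are described as a functional group.

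The arrays were of like overall level, with medians of 6.93 to 6.98 on the log2 scale of the Robust Multichip Average (RMA) values. The correlation between the 2 arrays of a group, across genes, was 0.998, 0.997 and 0.994 in the baseline, cholesterol and HDL groups. The HDL pair was the least alike, with 153 genes that differed by at least 1 (log2) between its arrays, against 17 in the cholesterol pair and 3 in the baseline pair.

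After HDL, 301 genes rose and 160 fell relative to loaded cells. These 461 genes, 2.73% of those tested, had a Benjamini-Hochberg adjusted p under 0.05 in limma and are referred to below as called. The rises came to 1.79% and the falls to 0.949% of all genes. Rises were also the larger changes. Their median size was 0.885 on the log2 scale, with 127 of at least 1, 31 of at least 2 and 7 of at least 3. The falls had a median size of 0.774, with 43 of at least 1, 2 of at least 2 and none of 3 or more. The median change over all 16860 genes was 0.00375, a value that RMA holds near 0 by making the arrays' distributions alike. Each gene had 1 estimate of spread shared by the 3 groups, although the groups were not equally tight. The standard deviation of the difference between replicates, across genes, was 0.274 for HDL, 0.183 for cholesterol and 0.167 for baseline. Intervals and p-values for HDL against cholesterol thus rest in part on the closer baseline arrays. The median distance from the estimate to a bound of the 95% confidence interval of a gene's change was 0.254, and the smallest changes called were 0.435 for a rise and 0.432 for a fall. The count of called genes depended on the arrays in the fit, and changed least when HDL replicate 1 was left out. Omitting HDL replicate 2 raised it to 1656, while omitting cholesterol replicate 1 or 2 lowered it to 74 or 138 and omitting a baseline array lowered it to 145.

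**Figure D1:**
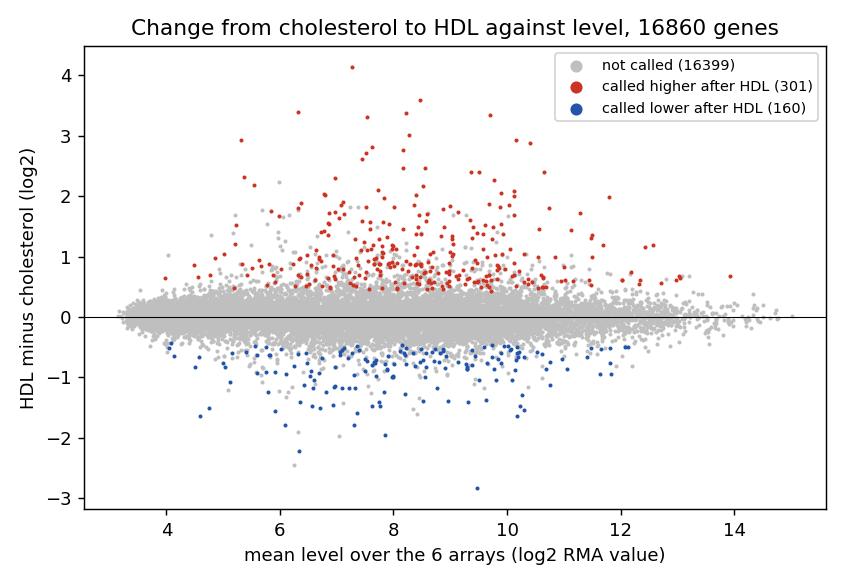
Each point is 1 of 16860 genes, with its mean log2 RMA value over the 6 arrays on the horizontal axis and its HDL minus cholesterol change (log2) on the vertical axis; red marks the 301 genes called higher after HDL, blue the 160 called lower and grey the rest. Called rises reach 4.14 and called falls 2.84 in size, and few called genes lie at the dim end.

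Called genes lay mainly at middle and high levels of expression. When genes were split into 4 equal classes by their mean value over the 6 arrays, the dimmest class, with values of 3.15 to 5.01, held 5 rises and 8 falls, or 0.308% of its 4215 genes. The second class held 56 rises and 36 falls (2.18%). The third held 121 rises and 60 falls (4.29%), and the brightest, with values of 8.91 and above, 119 rises and 56 falls (4.15%). The median standard error was much the same in the 4 classes, from 0.102 to 0.114. RMA compresses changes of dim genes, and its part in the low share of the dimmest class was not tested.

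The largest rise was that of ENSMUSG00000020641_at. Its log2 values were 5.83 and 5.39 on the baseline arrays, 6.17 and 5.91 on the cholesterol arrays and 10.73 and 9.63 on the HDL arrays. Both HDL arrays thus lay far above the other 4, which were close together. HDL exceeded cholesterol by 4.14 on the log2 scale (95% CI 3.35 to 4.93; limma adjusted p = 0.00187), a fold of 17.6. The gene moved from percentile 39.3 to percentile 87.5 of all genes measured, and loading alone had changed it by 0.43 (95% CI -0.36 to 1.22; limma adjusted p = 0.431). The HDL arrays differed by more than 1 from each other in this gene, replicate 1 being the higher. With only the cholesterol and HDL arrays in the limma fit the adjusted p was 0.0131.

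ENSMUSG00000028037_at was the gene with the second largest rise. Its values were 6.13 and 6.85 at baseline, 7.45 and 7.87 after cholesterol and 11.51 and 10.99 after HDL, so the levels of the 3 groups followed each other upward with no overlap. The HDL minus cholesterol change was 3.59 (95% CI 2.93 to 4.24; limma adjusted p = 0.00155), or 12.0-fold, after a change of 1.17 with loading (95% CI 0.52 to 1.83; limma adjusted p = 0.0221). The change after HDL went in the direction that loading had taken, and the gene ended 4.76 above baseline, at percentile 94.4 of all genes measured.

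The largest falls were in genes that loading had raised. ENSMUSG00000035042_at measured 6.39 and 6.59 at baseline, 13.02 and 11.76 after cholesterol and 9.94 and 9.17 after HDL. Both HDL arrays lay below both cholesterol arrays and above both baseline arrays. The fall was -2.84 (95% CI -3.79 to -1.88; limma adjusted p = 0.0178), or 7.14-fold, and the gene remained 3.06 above baseline (95% CI 2.11 to 4.02). Its cholesterol arrays differed by more than 1, and without cholesterol replicate 1 the change was -2.21 with an adjusted p of 0.0634 in limma. With only the cholesterol and HDL arrays in the fit the adjusted p was 0.0758.

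ENSMUSG00000028238_at showed the second largest fall and a far tighter one. It measured 5.19 and 5.08 at baseline, 8.11 and 7.95 after cholesterol and 5.76 and 5.88 after HDL. The 2 replicates lay close together in every group, and the groups did not overlap. The change from cholesterol to HDL was -2.21 (95% CI -2.46 to -1.97; limma adjusted p = 0.000308), or 4.64-fold, and ranked 6th among all genes by p. The gene stayed 0.68 above baseline (95% CI 0.44 to 0.93; limma adjusted p = 0.00447), after a rise of 2.90 with loading. It was thus brought most of the way back but not to its starting level.

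**Figure D2:**
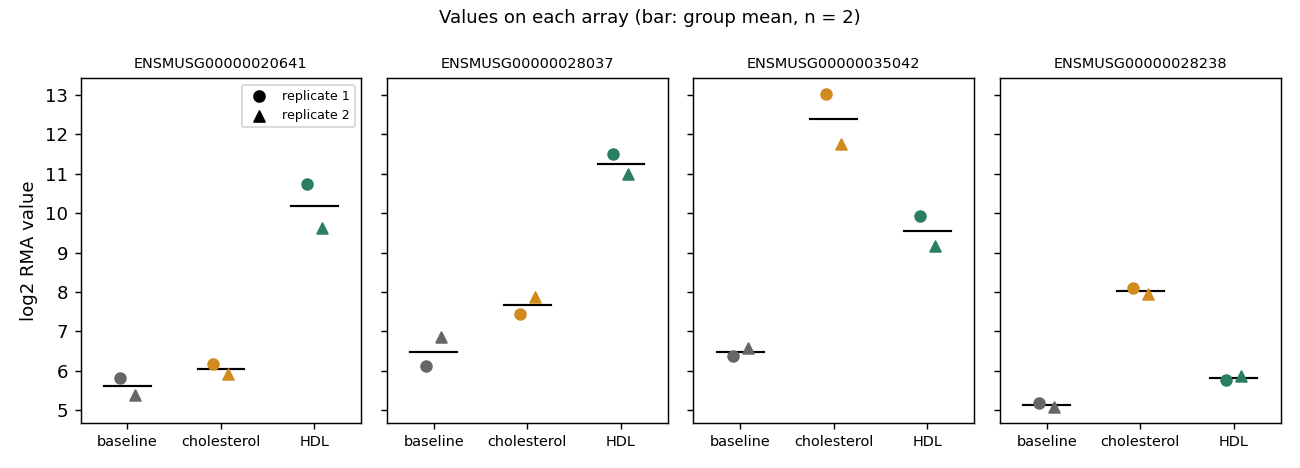
Log2 RMA values of the 2 genes with the largest rise and the 2 with the largest fall between cholesterol and HDL, on each of the 6 arrays; circles are replicate 1, triangles replicate 2, and bars the mean of 2 arrays. The HDL arrays of ENSMUSG00000020641_at (10.73 and 9.63) stand above all others, while those of ENSMUSG00000028238_at (5.76 and 5.88) lie just above its baseline arrays.

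To separate genes that went back toward baseline from genes that changed anew after HDL, the 461 genes were sorted by their cholesterol against baseline result. The sorting used whether that comparison was also called and in which direction. In the same fit, 3960 genes (23.5% of all) were called between cholesterol and baseline. The sorting uses the cholesterol arrays on both sides, so a chance deviation of those arrays would push a gene toward an apparent return, and the counts stand as a description with no test. Of the 461 genes, 242 (52.5%) changed against their loading response and are called returning here, 131 (28.4%) had no call for loading and are called anew, and 88 (19.1%) went further in the direction of loading. Among the fits that left out an array, the one without HDL replicate 1 changed the returning and anew counts least. Without cholesterol replicate 1 the returning and anew counts were 20 and 29, without cholesterol replicate 2 they were 60 and 48, and without HDL replicate 2 they were 667 and 641. Without baseline replicate 1 they were 45 and 66, and without baseline replicate 2 they were 45 and 61.

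The makeup of rises and falls was unlike. Of the 160 falls, 109 were returns of genes raised by loading, 39 were anew and 12 went further. Of the 301 rises, 133 were returns, 92 were anew and 76 went further. The falls were thus mostly returns, while the anew and further rises together outnumbered the returning ones. The difference in makeup was not tested.

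**Figure D3:**
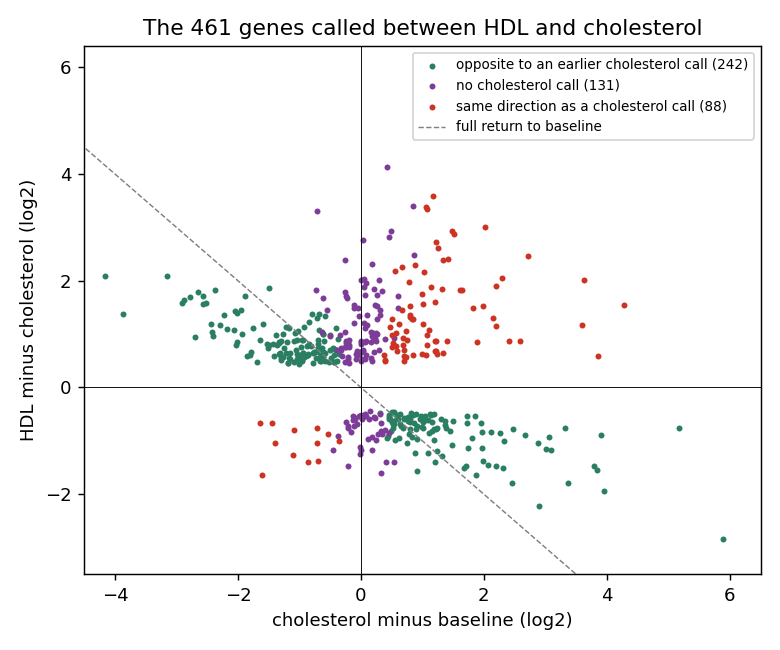
The 461 called genes by their cholesterol minus baseline change (horizontal, log2) and their HDL minus cholesterol change (vertical, log2); green marks the 242 returning genes, purple the 131 without a call for loading and red the 88 that went further, and the dashed line marks a full return. Both axes contain the cholesterol arrays; the upper right quadrant holds 76 genes that went further and the lower left 12.

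Among the returning genes, the 133 that rose had fallen with loading by a median of -1.03 and then rose by a median of 0.756. Their median level was 9.12 and 9.20 on the baseline arrays, 7.83 and 8.04 on the cholesterol arrays and 8.82 and 8.69 on the HDL arrays. Against baseline after HDL, 58 of them were still called lower, 67 were not called and 8 were called higher. The 109 that fell had risen with loading by a median of 1.10 and then changed by a median of -0.758, from levels of 8.80 and 8.72 to 8.04 and 7.96, with 7.45 and 7.36 at baseline. Of these, 51 were still called higher than baseline, 56 were not called and 2 were called lower. All genes called between HDL and baseline came to 20.0% of those tested. The median share of the loading change that was reversed was 0.706 in the first set and 0.725 in the second, values raised by the choice of genes called in both comparisons on the same cholesterol arrays. The change went past the baseline mean in 33 of the 133 and in 26 of the 109.

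Most returning genes changed by less than 1 on the log2 scale, with 37 of the 133 rises and 27 of the 109 falls at 1 or more. A change of at least 2 was seen in 2 returning rises and 2 returning falls. Those falls are the identifiers given above.

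Among the genes changed anew, rises outnumbered falls. The 92 rises had a median of 0.987 and reached 4.14, with 45 of at least 1 and 12 of at least 2. Their median level was 7.67 and 7.59 at baseline, 7.68 and 7.75 after cholesterol and 9.09 and 8.88 after HDL. The nearness of the baseline and cholesterol arrays, with the HDL arrays apart, is largely fixed by how the class was defined. The median change with loading was 0.0389. Sorting in this way also favours a call against baseline in the direction of the HDL change. Of the 92, 85 were called higher than baseline after HDL and 7 were not called. The 39 falls had a median of -0.758 and none of 2 or more, and 32 of them were called lower than baseline. The lack of a call for loading does not show that loading left a gene alone, since 23 of the 92 and 8 of the 39 had an unadjusted limma p under 0.05 in that comparison.

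The genes that went further had the highest median change of the 3 classes. The 76 that rose both with loading and again after HDL went up by a median of 1.07 and then 1.19. Their median level was 7.18 and 7.17 at baseline, 8.51 and 8.52 after cholesterol and 9.91 and 9.92 after HDL. Of these, 45 rose by at least 1 after HDL and 17 by at least 2. All 76 were called above baseline, which the sorting fixes, since 2 called changes in the same direction add up. ENSMUSG00000028037_at is the one with the largest HDL change. The 12 genes that fell further had a median change of -1.02 after HDL, following -0.979 with loading. All 12 were called below baseline, which the sorting fixes as well.

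The HDL arrays did not lie equally far from the cholesterol arrays. Whether this came from the response or from the deviation of an array was not tested. Measured from the cholesterol mean, HDL replicate 1 had 297 genes at least 1 higher and 123 at least 1 lower, while HDL replicate 2 had 146 and 55. Calling favours genes on which the HDL arrays are alike, so values for called genes are a description. The 301 rises had a median change of 0.954 on replicate 1 and 0.815 on replicate 2, and the 160 falls -0.846 and -0.677. Replicate 1 lay farther from the cholesterol mean in 207 of the 301 rises and in 114 of the 160 falls. In all 461 called genes both HDL arrays lay on the same side of both cholesterol arrays, against 47.0% of all genes, but a call requires nearly that and nothing is read from it. Of the 461 genes, 13 differed by at least 1 between the HDL arrays and 2 between the cholesterol arrays.

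**Figure D4:**
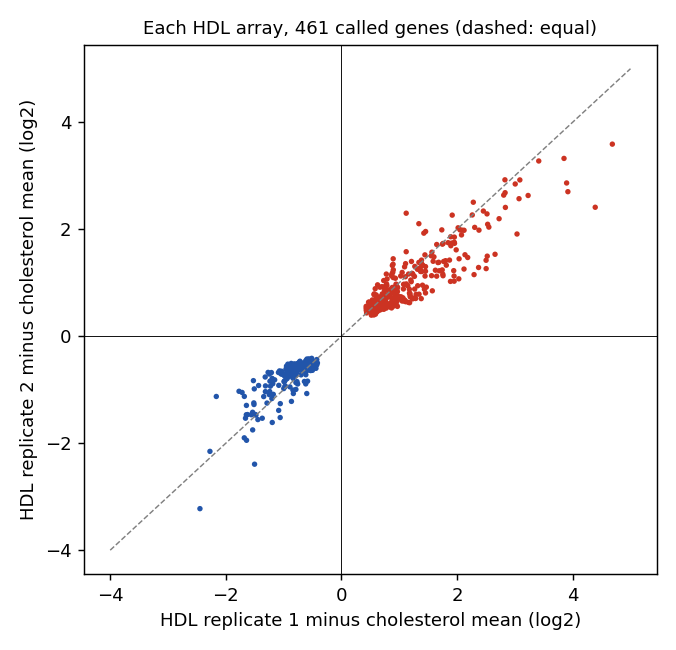
Change of each HDL array from the mean of the cholesterol arrays (log2) for the 461 called genes, with replicate 1 on the horizontal and replicate 2 on the vertical axis; red marks rises, blue falls, and the dashed line equality. Points lie in the upper right or lower left, and most rises (207 of 301) are farther from 0 on replicate 1.

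With only the cholesterol and HDL arrays in the limma fit, 145 genes were called. The one-way test that the design text names was run here per gene on the arrays of the 2 groups compared, without the third group. It called 0, where 1577 genes reached an unadjusted p under 0.05 and limma on the 3 groups had 3034 at that level. No gene called in the 3-group fit was called in the opposite direction in any of these fits. A smaller set was called in the same direction however the 6 arrays were left out in turn. It held 66 genes, 53 that rose by a median of 1.99 and 13 that fell by a median of -1.48. Of the 53 rises 25 went further, 21 were anew and 7 were returns, and of the 13 falls 11 were returns and 2 were anew. ENSMUSG00000020641_at, ENSMUSG00000028037_at and ENSMUSG00000028238_at belonged to that set, and ENSMUSG00000035042_at, which kept its call in 3 of the 6 fits, did not. A call in every fit favours large changes, and 52 of the 53 rises and 11 of the 13 falls were at 1 or more. For HDL against cholesterol, the 2 fits without a baseline array are the same fit, so the 6 are not all distinct.

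Cell cycle genes were the functional group that could be followed by identifier. Proliferating cells raise one set of genes for DNA synthesis in S phase and another for spindle assembly, chromosome segregation and division in G2 and M, so the summed level of such sets follows how many cells are in those phases. In bulk RNA, fewer cells in a phase and less RNA per cell cannot be told apart. The lists used here were drawn from phase marker pairs and not by function, and their fit to these cells was not tested. On the G2M list, 91 genes were measured, and their mean log2 value was 8.13 and 8.21 on the baseline arrays, 7.23 and 7.31 on the cholesterol arrays and 7.71 and 7.46 on the HDL arrays. Both HDL arrays lay above both cholesterol arrays and below both baseline arrays. Replicate 1, the HDL array with more genes at least 1 from the cholesterol mean, was also the higher one in this list. Of the 91 genes, 27 were higher on replicate 2.

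Of the 91 genes, 3 were called higher after HDL and 0 lower by limma, a share of 3.30% against 2.73% of all genes. In the third of the 4 level classes, which spans the list means, the called share was 4.29%. An unadjusted limma p under 0.05 was reached by 34 list genes that were higher and 4 that were lower. Of all genes, 18.0% reached it in either direction. The median change of the list was 0.201, against 0.00375 over all genes. It was 0.259 on HDL replicate 1 and 0.144 on replicate 2. Without HDL replicate 2 the fit called 35 of the 91 genes and 9.82% of all genes. Without cholesterol replicate 1 or 2 it called 0 of the 91, and 0.439% or 0.819% of all genes. All 3 called genes were returning ones, and none was anew or further, where 52.5% of all called genes were returning. A called rise in a gene called lower after loading is returning by definition. Against baseline, 56 of the 91 were called lower after loading and 45 after HDL, with median changes of -0.661 and -0.512, where 23.5% and 20.0% of all genes were called in those comparisons in either direction. The comparisons share arrays, and these values are set side by side without a test.

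The median of the S phase list changed by 0.0384, which became 0.00436 without HDL replicate 1, 0.0224 without HDL replicate 2 and 0.0223 with arrays centred on their medians. Of its 95 measured genes 7 rose and 2 fell, or 9.47% against 2.73% of all genes and 4.29% of the third level class. Of these 9, 8 were returning genes and 1 went further, where 52.5% of all called genes were returning. Loading had been called lower in 33 of the 95 and higher in 11, and those calls fix the class. The count of 9 became 0 without cholesterol replicate 1, 1 without cholesterol replicate 2 and 14 without HDL replicate 2, fits that called 0.439%, 0.819% and 9.82% of all genes. The list mean was 8.51 and 8.56 at baseline, 8.26 and 8.29 after cholesterol and 8.35 and 8.33 after HDL. After HDL it thus moved by less than the distance to baseline. The median change of the S list against baseline was -0.151 after loading and -0.149 after HDL. For HDL against cholesterol, 16 higher and 12 lower genes of the list reached an unadjusted limma p under 0.05. Among all genes 18.0% reached it in either direction. Of the 125 measured G1 genes 2 rose and 2 fell (3.20%, against 4.29% in the third level class, which spans the G1 list means too). The median change of the list was 0.00312. It was -0.0130 when arrays were centred on their medians and -0.0417 without cholesterol replicate 2. Without cholesterol replicate 1 or 2 the G1 list had 1 called gene, and without HDL replicate 2 it had 19 of 125, beside the same shares of all genes.

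**Figure D5:**
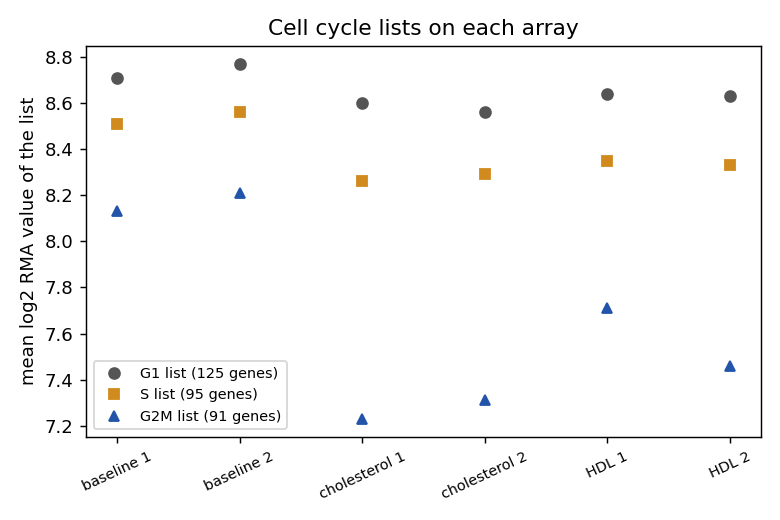
Mean log2 RMA value of the G1 (125 genes), S (95 genes) and G2M (91 genes) lists on each of the 6 arrays. The G2M mean is 7.23 and 7.31 on the cholesterol arrays and 7.71 and 7.46 on the HDL arrays, with both baseline arrays above 8.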

How the data were processed

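RNA of mouse aortic smooth muscle cells was hybridised to 6 Affymetrix arrays. The deposited values are log2 RMA values: RMA was used by the authors for background adjustment and normalization, per the labels, with probes grouped by a University of Michigan custom mapping to genes of Ensembl release 59. The run over all 3 groups was used, unfiltered. RMA equalises array distributions, so a global change of RNA content would not show. The number of arrays limits the precision.

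Limma 3.58.1 in R 4.3.3 fitted the 3 groups together across all 16860 genes (two-sided; 3 residual and 4.03 prior degrees of freedom; Benjamini-Hochberg adjusted p under 0.05). The code was tested on simulated data. Groups came from the array titles. Members and lists were chosen with earlier results of these data known. The 41 symbol lists could not be matched (0 identifiers paired), so the naming rule reduced to the 2 largest non-overlapping rises and falls. Cell cycle lists, added later, hold genes that were the higher member in at least 10 marker pairs of a phase in the scran package, in at least 90% of their pairs, without 25 genes in several lists. Alternatives changed the samples, test, block, prior, filter, centring, threshold and array weights.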

Additional observations from a re-analysis of the deposited data

How the results depend on the processing

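In order, the counts are genes called for HDL against cholesterol, its rises, its falls, returning, anew, cholesterol against baseline and HDL against baseline. In the fit reported they were 461, 301, 160, 242, 131, 3960 and 3370. Where a cause is not given, the cause was not tested. A minimum change of 1, stricter by construction, gave 170, 127, 43, 52, 86, 949 and 899. The design text's one-way test, run here on the 2 groups compared only and with fewer degrees of freedom, gave 0, 0, 0, 0, 0, 3 and 0. Only the arrays of the groups compared gave 145, 111, 34, 53, 39, 4915 and 2670. The count for cholesterol against baseline rose there, while the others fell. Leaving out each array in turn gave 74 to 1656, 56 to 945, 18 to 711, 20 to 667, 29 to 641, 1861 to 4915 and 1263 to 4256; a lone array was assumed to vary like the other groups. Leaving out a baseline array gave the HDL against cholesterol counts of the 2-group fit. The replicate number as a block gave 392 calls for HDL against cholesterol; same-numbered arrays deviated with correlations of 0.00525 to 0.133, and the labels state no pairing. The intensity trend (526), centring (466), the brighter genes (576) and array weights, chosen after seeing the data (416), stayed within 1.5 times of 461; so did the other counts there. None of the 4 named genes reversed. In the one-way test their adjusted p was 0.396 to 0.544. The symbol lists were not run.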
